A study of Mus musculus with 8 samples.

Results

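Accessible chromatin was examined at 8 mouse genes that write, maintain and erase DNA methylation: Dnmt1, Uhrf1, Dnmt3a, Dnmt3b, Dnmt3l, Tet1, Tet2 and Tet3. Their members in the data were all ATAC-seq peaks whose deposited gene list holds one of these symbols exactly. That gave 222 of 328733 peaks. Peaks from any of the libraries were joined into 1 region where they shared 1 bp or more, which left 46 regions out of 87144. ATAC-seq uses a transposase to cut and tag open DNA, so tags pile up where chromatin is accessible. Germ cells were sorted for eGFP from testes of PIWIL2-eGFP mice, a line whose transgene marks germ cells from before birth through early spermatids. All mice received WIN 18,446, an inhibitor of retinoic acid (RA) synthesis, for 7 days from 2 days post partum (dpp). One group was collected without RA (0 h), and the others 18, 48 and 120 h following RA, which was injected at 9 dpp. RA starts the differentiation of spermatogonia, so the timepoints run from undifferentiated spermatogonia to type B spermatogonia. Every timepoint had 2 libraries with 1 mouse each. Time after RA, time after the end of WIN 18,446 and the age of the mice moved together and cannot be told apart. The 0 h mice had no injection, and RA was given in dimethyl sulfoxide. In comparisons with 0 h, RA, solvent and injection therefore cannot be told apart. The background strain is a C57BL/6 x 129s4/SvJae cross in the labels and C57BL/6 x SJL in the methods.

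DNMT1 copies methylation onto the new DNA strand after replication, and UHRF1 brings it to hemimethylated DNA. DNMT3A and DNMT3B place methylation at new sites, and DNMT3L, which has no catalytic activity of its own, stimulates them in germ cells. TET1, TET2 and TET3 oxidize 5-methylcytosine, a first step of demethylation. DNA methylation in the male germline is laid down mostly before birth, and DNMT3A and DNMT3B are known to increase when spermatogonia differentiate.

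A region is named here by its gene and by the distance of its summit from the gene start in the deposited table, in bp. 6 of the regions, those that the results turn on, are printed below from the GRCm38 genome, 5′ to 3′ on the strand of the gene, with every CpG in capitals. They show how different these 6 sequences were in CpG content. All are the bases around the summit that lie outside exons of the gene, up to 300.
The first is the intronic Tet3 region that was highest at 120 h, chr6:83430539-83430838.
Tet3 +10990: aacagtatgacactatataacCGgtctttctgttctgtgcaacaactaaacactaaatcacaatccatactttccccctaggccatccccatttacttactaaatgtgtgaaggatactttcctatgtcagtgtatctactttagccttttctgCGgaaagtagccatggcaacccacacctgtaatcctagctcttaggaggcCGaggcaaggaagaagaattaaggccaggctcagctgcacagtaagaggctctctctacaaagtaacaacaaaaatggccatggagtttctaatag
The second covers the Tet3 start region, chr6:83441679-83441878.
Tet3 -50: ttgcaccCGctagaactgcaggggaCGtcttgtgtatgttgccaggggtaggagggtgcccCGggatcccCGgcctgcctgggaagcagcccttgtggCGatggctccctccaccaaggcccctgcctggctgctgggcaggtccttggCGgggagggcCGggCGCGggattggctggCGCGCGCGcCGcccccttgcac
The next ones lie upstream of the deposited starts of Tet2, chr3:133545931-133546230, and Dnmt3a, chr12:3806251-3806473, where a peak was present in both 0 h libraries and in no later library.
Tet2 -1690: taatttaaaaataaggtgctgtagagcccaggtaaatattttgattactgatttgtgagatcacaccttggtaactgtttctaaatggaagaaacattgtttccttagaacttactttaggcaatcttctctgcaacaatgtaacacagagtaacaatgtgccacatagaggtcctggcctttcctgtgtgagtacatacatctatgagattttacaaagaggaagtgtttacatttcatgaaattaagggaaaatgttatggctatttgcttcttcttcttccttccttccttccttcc
Dnmt3a -580: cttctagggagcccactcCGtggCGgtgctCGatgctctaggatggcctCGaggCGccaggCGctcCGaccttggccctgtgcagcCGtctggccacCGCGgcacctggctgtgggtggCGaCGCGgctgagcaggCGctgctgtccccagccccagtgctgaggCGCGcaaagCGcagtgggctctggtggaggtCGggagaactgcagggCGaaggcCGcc
Then follows the intronic Dnmt3a region that fell relative to the median region at 120 h, chr12:3871035-3871334.
Dnmt3a +64204: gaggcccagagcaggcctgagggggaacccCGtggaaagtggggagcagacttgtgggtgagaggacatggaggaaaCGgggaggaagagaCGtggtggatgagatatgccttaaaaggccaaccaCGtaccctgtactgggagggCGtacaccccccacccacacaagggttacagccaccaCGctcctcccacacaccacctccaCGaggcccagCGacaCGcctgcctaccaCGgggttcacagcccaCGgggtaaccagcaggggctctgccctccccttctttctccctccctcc
The last is the Uhrf1 start region, which rose relative to the median region, chr17:56304043-56304244.
Uhrf1 +855: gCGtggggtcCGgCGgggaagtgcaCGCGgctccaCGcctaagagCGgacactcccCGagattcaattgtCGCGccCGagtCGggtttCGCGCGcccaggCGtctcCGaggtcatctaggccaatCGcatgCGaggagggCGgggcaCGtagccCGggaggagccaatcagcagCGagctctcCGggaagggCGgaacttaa
The Tet2 -1690 sequence has no CpG and a GC content of 36.0%, and Tet3 +10990 has 3 CpGs and 43.0%. In contrast, the 202 bases of Uhrf1 hold 25 CpGs and the 223 bases of Dnmt3a -580 hold 20. The Uhrf1 sequence also has 1 AGGTCA, the half-site read by nuclear receptors such as the RA receptors, starting at base 109, with 2 CCAAT boxes and 2 GC boxes (GGGCGG). The half-site, on either strand, was found within 300 bases around the summit in 10 of 46 member regions (21.74%) and in 15.73% of all regions. No member region had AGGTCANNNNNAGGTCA or AGGTCANNAGGTCA, the direct repeats bound by RA receptors, on either strand. Each of these was found in 0.02% of all regions, so their absence from 46 regions carries no information. Only these exact letters were searched, and no other forms or spacings of the repeat. Whether the member regions hold sites for RA receptors was therefore not tested. The half-site also counts wherever it is part of a repeat.

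The 8 genes had more peaks before RA than after it. The 0 h libraries had 42 and 41 peaks assigned to the genes. The later libraries had 19 and 24 (18 h), 21 and 27 (48 h), and 28 and 20 (120 h). On average the number fell from 41.5 at 0 h to 23.2 later, a ratio of 1.79, while the ratio for all peaks was 2.26. Dnmt3a had the most peaks, with 10 and 9 at 0 h and between 4 and 6 later. Tet3 had 7 in both 0 h libraries and 1, 3, 2, 4, 4 and 2 later. Tet1 had 7 and 7 before RA and between 3 and 5 after it. Tet2 (5 and 4, then 1 to 3), Dnmt3l (5 and 6, then 2 to 4) and Dnmt1 (3 and 3, then 2 in each library) followed the same order. In these 6 genes each 0 h library had more peaks than any library after RA. An exact two-sided permutation test gave p = 0.0714 for each gene, the smallest that 2 against 6 libraries allow. The same held for 36.9% of all 21490 genes with a peak, which were not matched to the members for number of peaks. Dnmt3b (2 and 3, then 1 to 3) and Uhrf1 (3 and 2, then 2 or 3) overlapped between 0 h and later. When an equal number of the highest peaks was taken from each library, the 8 genes had 21 and 21 peaks at 0 h and 17 to 22 later, so the excess summed over the genes lay among peaks below the highest 24643 of a library. Tet2 was the exception, with 4 and 4 of these highest peaks at 0 h and 1, 2, 3, 3, 3 and 3 later (exact two-sided permutation p = 0.0714). It was the only member whose 0 h libraries were then above each later library, as were 2.48% of all genes.

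**Figure D1:**
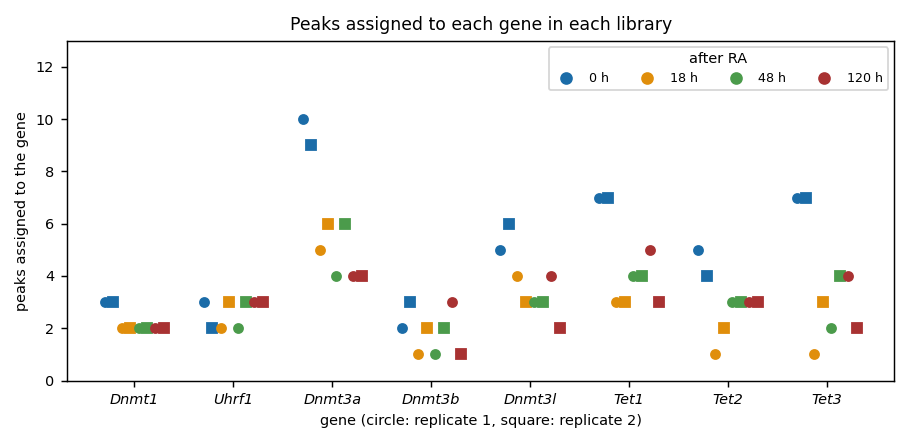
Number of ATAC-seq peaks assigned to each of the 8 genes (y axis) in each library, coloured by hours after RA, with circles for replicate 1 and squares for replicate 2. The 0 h points lie above all later points for 6 genes, and for Dnmt3b and Uhrf1 they overlap.

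The 46 regions were counted by timepoint and by gene, and differences between the genes were not tested. A region was counted at a timepoint if neither library lacked the peak. By this rule 36 regions were found at 1 timepoint or more. Of these, 12 were found at all 4 timepoints (33.3%, against 25.3% of all regions), and the same 12 were the ones with a peak in all 8 libraries. Another 14 were found at 0 h only (38.9%, against 49.8% of all regions), and 6 of these 14 had no peak in any later library. The 6 are 16.7% of the 36 member regions, against 30.4% of all regions found at any timepoint. The other 10 were found at 0 h and at 1 or 2 later timepoints. With an equal number of the highest peaks, the share at all 4 timepoints was 39.13%, against 46.15% of all regions. With peaks of at least 50 it was 22.58%, against 25.03%, so the members were above all regions only in some settings. No member region was found at 120 h only (2.49% of all regions were). With an equal number of the highest peaks 2 were, Tet1 +70094 and Tet3 +10990 (8.7%, against 9.19% of all regions). Without 120 h replicate 2 there was 1, Tet3 +24846 (2.7%, against 9.21% of all regions). With windows around the summits in place of whole peaks, 2 were (5.41%, against 3.39% of all regions). The remaining 10 regions were found in both libraries of no timepoint. Uhrf1 kept both of its regions in every library. Dnmt1 and Dnmt3a kept 2 of 3 and 4 of 11, Dnmt3l 2 of 6, Dnmt3b 1 of 3 and Tet1 1 of 7. Tet2 and Tet3 had no region with a peak in all 8 libraries, among 5 and 9 regions. Of all 87144 regions 17.8% had a peak in all 8 libraries, and of the 46 member regions 12 did.

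**Figure D2:**
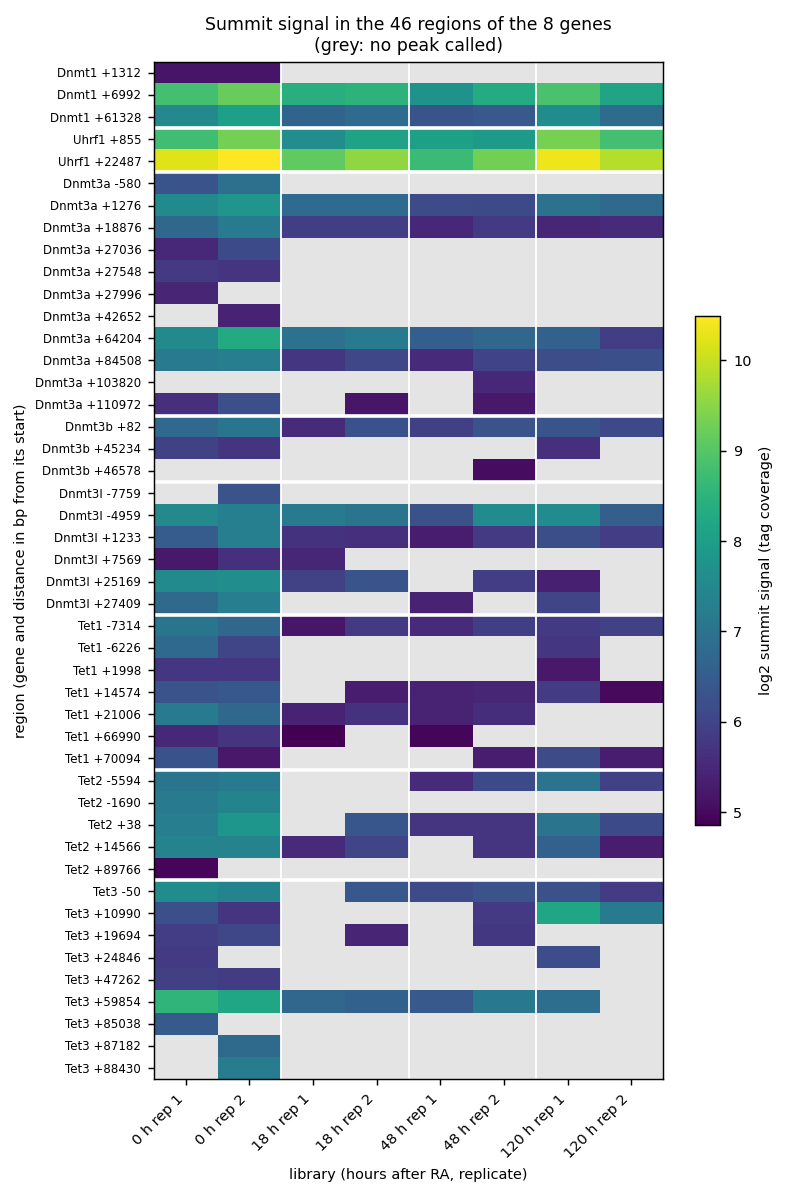
Summit signal (log2 tag coverage, colour) of the 46 regions (rows, by gene and distance from its start) in the 8 libraries (columns), with grey where no peak was called. Rows with colour in every column are the 12 regions found in all 8 libraries, and coloured cells crowd into the 0 h columns for Dnmt3a, Tet1 and Tet3.

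By the deposited annotation, 8 of the 12 regions in all 8 libraries lay on a CpG island (66.7%), against 1 of the 14 regions at 0 h only (7.14%). Among all regions the shares were 58.6% and 8.24%. By the basic transcripts of GENCODE vM21, 23 of the 46 summits were in an intron of the member gene, 16 outside it, 6 in a UTR and 1 in a coding exon. Of the 46 regions, 19 were also assigned to a neighbouring gene, so a change there cannot be given to the member alone. By GENCODE, 4 of these hold the start of a coding neighbour and of no basic member transcript, namely Dnmt1 +61328, Uhrf1 +22487, Dnmt3l +1233 and Dnmt3l +27409.

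The heights of the 12 regions were compared with limma, as the log2 of the coverage at the summit, across all 15536 regions with a peak in all 8 libraries. As deposited, summit signal in these regions was highest at 0 h, with library medians of 224 and 270, then 86 to 116 at 18 and 48 h and 166 and 106 at 120 h. Over all peaks of a library the medians were closer, with 75 and 83 at 0 h, 62 to 67 at 18 and 48 h and 77 and 71 at 120 h. The changes are therefore given on the deposited scale and also relative to the median region, where each library is centred on its median. On the deposited scale 10 of the 12 member regions were called lower at 18 h than at 0 h (92.3% of all regions were). At 48 h 11 were called lower (93.3%), and at 120 h 5 were (44.8%). In 7 of the 12 regions both 0 h libraries were above each later library (67.7% of all regions). After centring this order was seen in 0 members (8.22% of all regions). No member region was called higher at any of these times on the deposited scale (0.296%, 0.328% and 0.882% of all regions), also at an unadjusted p under 0.05 (0.303%, 0.335% and 1.12%). The counts of lower regions rested partly on single libraries. With 1 library left out the fit changes for all regions, and the shares of all regions called in those fits are not given. The counts that follow thus describe dependence on single libraries and do not set the named regions apart. Leaving out 0 h replicate 2 gave 2 at 18 h (Dnmt3a +84508 and Tet1 -7314), 6 at 48 h and 2 at 120 h (Dnmt3a +18876 and Dnmt3a +64204). Leaving out 18 h replicate 1 gave 4 at 18 h (Dnmt3a +18876, Dnmt3a +84508, Dnmt3l +1233 and Tet1 -7314). The 120 h count became 3 when 0 h replicate 1 was left out and 8 when 120 h replicate 1 was. Their median log2 changes were -1.03, -1.30 and -0.73, and those of all regions -1.23, -1.36 and -0.75. On the relative scale no member was called at 18 h (0.225% of all regions were lower and 1.25% higher) or 48 h (1.51% and 3.26%). At an unadjusted p under 0.05, 2 members were higher at 18 h (8.30% of all regions) and 2 at 48 h (11.1%), and 0 were lower (4.99% and 8.11%). At 120 h 1 was lower (15.8% of all regions) and 2 were higher (23.0%), against 2 lower (19.7%) and 2 higher (29.4%) at the unadjusted threshold. From 48 to 120 h 1 was lower (7.45%) and 0 higher (9.47%), against 2 lower (16.1%) and 2 higher (21.2%) unadjusted. Between 18 and 48 h no member was called on either scale (0.00644% of all regions were lower on the deposited scale). Unadjusted, 0 members passed on the deposited scale (1.64% of all regions were lower and 0.0901% higher), and relative to the median region 1 was lower, Dnmt3a +1276 (3.15%), and 0 higher (2.75%). In bulk chromatin, fewer cells with an open region and less opening per cell cannot be told apart. Every region received the same SE of 0.37 on the deposited scale, because limma drew all variances to 1 shared value.

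**Figure D3:**
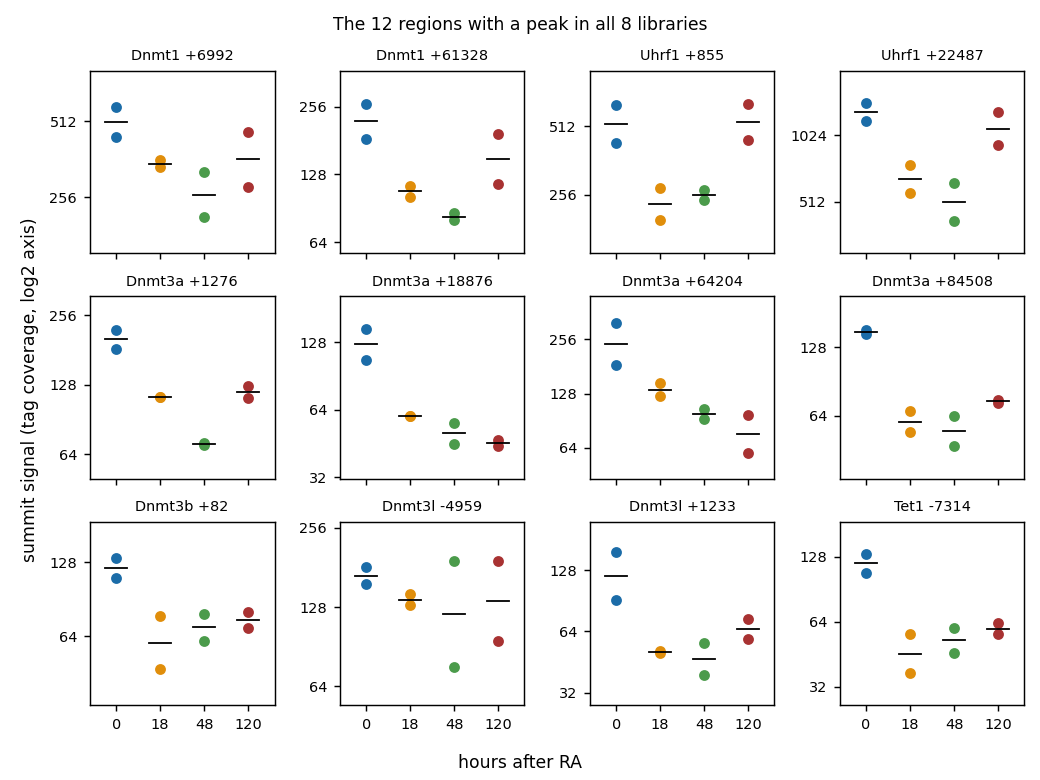
Summit signal (tag coverage, log2 axis) of the 12 regions found in all 8 libraries, by hours after RA. Points are libraries, 2 for each timepoint, and bars are their geometric means. In both Uhrf1 regions the 120 h libraries lie above all 18 and 48 h libraries. Dnmt1 +61328, Dnmt3a +84508 and Dnmt3l +1233 show the same order. Dnmt3a +64204 and Dnmt3a +18876 have their lowest geometric mean at 120 h.

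The strongest regions of the set were assigned to the maintenance genes, in part together with a neighbour. Uhrf1 +22487 (chr17:56325469-56326285, a CpG island beyond the end of Uhrf1 that holds the start of the histone demethylase gene Kdm4b) had summit signals of 1194 and 1439 at 0 h, 557 and 747 after 18 h, 417 and 624 after 48 h and 1301 and 927 after 120 h. It was among the highest peaks of every library, at or above the percentile 99.8 of all peaks. Its 120 h libraries were above all 18 and 48 h libraries, and 1 of them lay between both 0 h values. The Uhrf1 start region, Uhrf1 +855 (chr17:56303151-56304533, a CpG island also assigned to Arrdc5), covers all Uhrf1 starts of GENCODE basic and had 432 and 636 at 0 h, 197 and 275 after 18 h, 268 and 242 after 48 h and 646 and 448 after 120 h. The 120 h and 0 h values overlapped, and both were above all 18 and 48 h values.
On the deposited scale both Uhrf1 regions were lower at 18 h (log2 change -1.17 for Uhrf1 +855, adjusted p = 0.0028, and -1.02 for Uhrf1 +22487, adjusted p = 0.0079) and at 48 h (-1.04 and -1.36). From 48 to 120 h 10 of the 12 member regions had a change above 0 (12986 of all 15536 regions). At an unadjusted limma p under 0.05, 4 members were higher (5958 of all regions). Both Uhrf1 regions rose, by 1.08 (adjusted p = 0.026) and 1.11 (adjusted p = 0.022). They were the only 2 member regions called higher (23.7% of all regions were). Neither rise was called without 120 h replicate 1 or without either 48 h library. For Uhrf1 +855 the lowest of these changes was 0.81 (adjusted p = 0.16, without 120 h replicate 1), and for Uhrf1 +22487 it was 0.82 (adjusted p = 0.33, without 48 h replicate 1). At 120 h they differed from 0 h by 0.04 and -0.26 with adjusted p = 0.94 and 0.59. After centring, Uhrf1 +855 was higher at 120 h than at 0 h by 0.93 ± 0.21 (SE, adjusted p = 0.0058) and Uhrf1 +22487 by 0.64 ± 0.20 (adjusted p = 0.025). The second of these calls was lost without 0 h replicate 1 (0.64, adjusted p = 0.089), 0 h replicate 2 (0.64, adjusted p = 0.080) or 120 h replicate 2 (0.56, adjusted p = 0.13). Both 120 h libraries were above each of the other 6 libraries on this scale in 2 of the 12 member regions, and 27.6% of all regions showed that order. With quantile normalization in place of median centring, neither was called, and the changes were 0.45 for Uhrf1 +855 (adjusted p = 0.14) and 0.02 for Uhrf1 +22487 (adjusted p = 0.96).

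Dnmt1 had a start region of nearly the same strength. Dnmt1 +6992 (chr9:20952142-20953210, a CpG island that holds 3 annotated Dnmt1 starts) gave 445 and 583 at 0 h, 336 and 361 after 18 h, 214 and 321 after 48 h and 466 and 282 after 120 h. Only the 18 and 48 h libraries lay wholly below 0 h, since 1 of the 120 h libraries fell between both 0 h values. It was lower at 48 h (log2 change -0.96 on the deposited scale, adjusted p = 0.011) and was not called at 18 h (-0.55, adjusted p = 0.14) or 120 h (-0.49, adjusted p = 0.28). The log2 change at 48 h was -0.67 (adjusted p = 0.18) without 48 h replicate 1 and -0.76 (adjusted p = 0.13) without 0 h replicate 2. Its relative changes were 0.71, 0.43 and 0.40 at 18, 48 and 120 h, none past the threshold, and the 0 h libraries were below each later library. That order was seen in 2 of the 12 member regions and in 12.4% of all regions.
Dnmt1 +61328 (chr9:20898197-20898911), beyond the end of Dnmt1, holds the start of Eif3g, a translation factor gene, and is also assigned to Ppan. It gave 183 and 264, then 102 and 114, 80 and 86, and 194 and 116. It was lower at 18 h (log2 change -1.03 on the deposited scale, adjusted p = 0.0076) and 48 h (-1.41), and 120 h overlapped 0 h. The third region, Dnmt1 +1312 (chr9:20958459-20958758), an intronic region after the most upstream annotated Dnmt1 start, had a peak of 36 in each 0 h library and in no later library. A value of 36 is close to the lowest summit signal called in any library, 24 or 25.

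Dnmt3a had 11 regions, the most of any member. 4 of them were found in all 8 libraries and 7 were not. Dnmt3a +1276 (chr12:3807848-3809050), the region of this kind nearest the gene start, gave 184 and 221 at 0 h, 113 and 113 after 18 h, 72 and 70 after 48 h and 126 and 112 after 120 h. All later libraries were below 0 h, and 48 h was the lowest. The log2 change on the deposited scale was -0.84 at 18 h (adjusted p = 0.028), -1.51 at 48 h (adjusted p = 0.00015) and -0.76 at 120 h (adjusted p = 0.079). The 18 h call was lost without 0 h replicate 2 or either 18 h library (-0.70 to -0.84, adjusted p = 0.081 to 0.16). Dnmt3a +84508 (chr12:3891133-3892440), a CpG island at the start of 2 downstream Dnmt3a transcripts, gave 147 and 153, then 54 and 67, 47 and 64, and 73 and 75. It was lower at all 3 times (-1.32, -1.45 and -1.02 on the deposited scale, adjusted p = 0.0010, 0.00024 and 0.017). The fall at this internal start stayed close to that of the median region, with relative changes of -0.06, -0.06 and -0.13.
Both regions in the introns between these starts had their lowest mean at 120 h. Dnmt3a +64204 (chr12:3870807-3871637, also assigned to Gm10485) gave 184 and 317 at 0 h, 124 and 146 after 18 h, 93 and 105 after 48 h and 97 and 60 after 120 h. The values fell from 0 h to 48 h without overlap, and 1 of the 120 h libraries lay below all the others. Its percentile among the peaks of a library was 83.4 and 90.2 at 0 h and 60.3 and 39.8 after 120 h. The log2 change on the deposited scale was -1.66 at 120 h (adjusted p = 6.5e-05). After centring, it was lower at 120 h than at 0 h by -0.77 ± 0.22 (SE, adjusted p = 0.014) and lower at 120 h than at 48 h by -0.88 ± 0.22 (adjusted p = 0.024). It was the only member region called lower on this scale. Without 0 h replicate 2 the relative change from 0 h was -0.51 (adjusted p = 0.13), without 120 h replicate 2 it was -0.75 (adjusted p = 0.068), and with quantile normalization it was -0.60 (adjusted p = 0.073). The call against 48 h was lost without either 48 h library or 120 h replicate 2 (-0.84 to -0.91, adjusted p = 0.091 to 0.13). Dnmt3a +18876 (chr12:3825313-3826287) gave 107 and 146, then 60 and 60, 45 and 56, and 44 and 47. It was lower at all 3 times on the deposited scale, by -1.06, -1.32 and -1.46 on the log2 scale. Its relative change at 120 h was -0.57 (adjusted p = 0.084).
The other 7 Dnmt3a regions included 4 at 0 h only. The highest of them, Dnmt3a -580 (chr12:3806215-3806658), upstream of the deposited gene start but within the span of non-basic GENCODE transcripts of Dnmt3a, and with a GC content of 71.8%, had 80 and 123 at 0 h and no peak in any later library. Dnmt3a +27036 (45 and 70) and Dnmt3a +27548 (56 and 52) behaved likewise, and Dnmt3a +110972 had 50 and 75 at 0 h with a single peak of 37 at 18 h and of 38 at 48 h. The last 3 each appeared in 1 library, between 42 and 45.

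The Dnmt3b start region and 1 of the 2 Dnmt3l regions in all 8 libraries were lower at 18 h. Dnmt3b +82 (chr2:153648846-153650589) is a CpG island that covers all annotated Dnmt3b starts and is also assigned to 7530422B04Rik. It gave 110 and 133 at 0 h, 47 and 77 after 18 h, 61 and 79 after 48 h and 80 and 69 after 120 h. All 6 later values were below both 0 h values. The log2 change on the deposited scale was -1.01 at 18 h (adjusted p = 0.0088), -0.80 at 48 h (adjusted p = 0.034) and -0.70 at 120 h (adjusted p = 0.11). The 18 h change was -0.65 (adjusted p = 0.19) without 18 h replicate 1 and -0.87 (adjusted p = 0.092) without 0 h replicate 2. The 48 h call was lost without either 0 h library or 48 h replicate 1 (-0.61 to -0.94, adjusted p = 0.054 to 0.22). The relative changes had the other sign (0.25, 0.59 and 0.19) and none was called. Dnmt3b +45234 (chr2:153694538-153695119), found at 0 h only, had 62 and 52 there and 49 in 1 of the 120 h libraries. It lies beyond Dnmt3b and is also assigned to Gm14490, a symbol of the rodent paralog Dnmt3c. A peak of 33 nearby appeared in 1 of the 48 h libraries.
All Dnmt3l regions were shared with a neighbour, 4 with Aire and 2 with Icosl, both immune genes. Dnmt3l +1233 (chr10:78042932-78043772), on a CpG island after the upstream Dnmt3l start, also holds the start of Aire. It gave 91 and 157 at 0 h, 51 and 50 after 18 h, 39 and 56 after 48 h and 74 and 59 after 120 h. All later values were below 0 h. The log2 change on the deposited scale was -1.24 at 18 h (adjusted p = 0.0017), -1.36 at 48 h (adjusted p = 0.00052) and -0.86 at 120 h (adjusted p = 0.047). The call at 120 h held under 4 of 13 alternatives, and without 0 h replicate 2 the change was -0.46 (adjusted p = 0.53). Dnmt3l -4959 (chr10:78037105-78037649) behaved differently, with 182 and 156, then 143 and 130, 76 and 191, and 192 and 95. Its libraries overlapped at 48 and 120 h and it was not called at any time, with log2 changes on the deposited scale of -0.31, -0.48 and -0.32. At 48 h the sign turned to 0.18 without replicate 1, and at 120 h to 0.19 without replicate 2. Its relative changes were 0.95, 0.91 and 0.57, with adjusted p = 0.19, 0.13 and 0.17. The region at the downstream Dnmt3l starts, Dnmt3l +7569 (chr10:78049161-78050021), had 38 and 50 at 0 h, 44 in 1 of the 18 h libraries, and no later peak. On the Icosl side, Dnmt3l +25169 had 184 and 199 at 0 h and 63 and 80 after 18 h, with 59 and 41 in 1 library each at 48 and 120 h. Dnmt3l +27409, which holds the Icosl start and was the highest of the Dnmt3l regions at 0 h only, had 111 and 154 there, 42 in 1 of the 48 h libraries and 66 in 1 of the 120 h libraries. Dnmt3l -7759 was called in a single 0 h library, at 79.

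**Figure D4:**
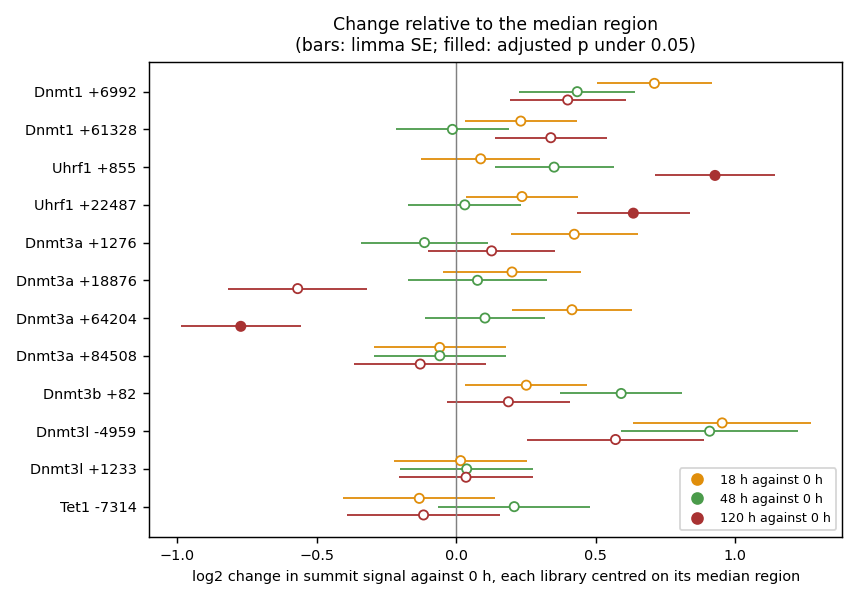
Log2 change in summit signal against 0 h (x axis) of the 12 member regions found in all 8 libraries, after each library was centred on its median region, with bars for the SE from limma and filled points for an adjusted p under 0.05. Among these regions only Uhrf1 +855 (0.93), Uhrf1 +22487 (0.64) and Dnmt3a +64204 (-0.77) are filled, all at 120 h.

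The TET genes had 21 regions, of which only Tet1 -7314 was found in all 8 libraries (17.8% of all 87144 regions were). Tet1 -7314 (chr10:62886606-62887609), a CpG island within Tet1, gave 132 and 108 at 0 h, 37 and 56 after 18 h, 46 and 60 after 48 h and 56 and 63 after 120 h. All later libraries were below 0 h by a wide margin. The log2 change on the deposited scale was -1.39 at 18 h (adjusted p = 0.00061), -1.18 at 48 h (adjusted p = 0.0021) and -1.01 at 120 h (adjusted p = 0.018). The relative changes were -0.13, 0.21 and -0.12, none past the threshold. Tet1 also had 3 regions at 0 h only. The highest, Tet1 -6226 (chr10:62885720-62886479), had 110 and 66 at 0 h and 54 in 1 of the 120 h libraries. The intronic Tet1 +21006 had 145 and 109 at 0 h, 43 and 51 after 18 h, 43 and 48 after 48 h, and no peak at 120 h. Tet1 +14574 had 79 and 85 at 0 h and 32 to 58 in 5 of the later libraries. Tet1 +70094, in a UTR, had 77 and 38 at 0 h and 72 and 39 after 120 h, with 39 in between in 1 of the 48 h libraries. Tet1 +66990 (45 and 53) and Tet1 +1998 (54 and 54) were the other regions at 0 h only. The first had later peaks of 29 and 31, in 1 of the 18 h and 1 of the 48 h libraries, and the second had 1 of 38 at 120 h.

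At Tet2, the start region was open at 0 h, fell, and was higher in both 120 h libraries than in both 48 h libraries. Only 1 of the 120 h libraries was above the single 18 h value. Tet2 +38 (chr3:133544076-133545132, a CpG island over both annotated starts) gave 155 and 227 at 0 h, 82 in only 1 of the 18 h libraries, 52 and 52 after 48 h, and 131 and 70 after 120 h. Every later value was below 0 h. The upstream Tet2 -5594 (chr3:133549800-133550180) gave 132 and 144 at 0 h, no peak at 18 h, 46 and 70 after 48 h, and 129 and 63 after 120 h. Its peaks were thus absent at the earliest time after RA and called again later. Between these regions, Tet2 -1690 (chr3:133545929-133546319) gave 146 and 170 at 0 h and no peak in any later library. These are the highest summit signals among the 6 member regions without a later peak, and its sequence, printed above, is free of CpG. The intronic Tet2 +14566 gave 166 and 167 at 0 h, 47 and 66 after 18 h, 52 in 1 of the 48 h libraries, and 97 and 39 after 120 h. Tet2 +89766 was called in 1 of the 0 h libraries, at 31.

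Tet3 had the one member region that was higher in both 120 h libraries than in both 0 h libraries. Tet3 +10990 (chr6:83430481-83430956), in an intron and off any CpG island, gave 75 and 52 at 0 h, no peak at 18 h, 56 in 1 of the 48 h libraries, and 290 and 145 at 120 h. The lower of both 120 h values was above the higher 0 h value. Its percentile among the peaks of a library was 49.8 and 25.1 before RA and 89.4 and 74.7 at 120 h. Of the 19 member regions with a peak in all 0 h and 120 h libraries, it was the only one in this order, which was seen in 585 of 20285 such regions (2.88%). It was not tested with limma, because it had no peak in 3 libraries. The Tet3 start region did not follow. Tet3 -50 (chr6:83440902-83442251, a CpG island also assigned to B230319C09Rik) gave 193 and 168 at 0 h, 84 in 1 of the 18 h libraries, 71 and 79 after 48 h, and 76 and 58 after 120 h, so all later values were below 0 h. Tet3 +59854 (chr6:83381550-83382135), intronic, was the strongest TET region at 0 h, with 373 and 286. It gave 106 and 98 after 18 h, 86 and 141 after 48 h, and 118 in only 1 of the 120 h libraries. Tet3 +19694 (60 and 67 at 0 h) had 1 later peak each at 18 and 48 h, of 44 and 55, and Tet3 +47262 (61 and 57) had none. Tet3 +24846 appeared in 1 of the 0 h libraries at 56 and in 1 of the 120 h libraries at 73. The 3 regions on the side of Bola3 were each called in a single 0 h library, between 88 and 151.

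The samples held germ cell chromatin at every timepoint, and the 0 h libraries also had more open starts of somatic genes. Of 9 germ cell markers, 8 or 9 had a peak within 1000 bp of the start in every library. Their summed signal was 2546 and 3099 at 0 h and 1000 to 2214 later. All 6 Sertoli cell markers had such a peak in both 0 h libraries, and 2 or 3 had one in the later libraries, with summed signals of 615 and 802 against 105 to 246. Among the Sertoli markers, Wt1 had a start peak in every library. Gata4 had one in all libraries but those at 120 h, and Sox9 in all but those at 18 h. Amh had one in both 0 h libraries and in 120 h replicate 1. Dhh and Cldn11 had one in both 0 h libraries and in no later library. All 4 peritubular myoid markers had one at 0 h, and 1 to 3 later (summed signals of 445 and 511 against 86 to 276). Of 4 macrophage markers 2 and 1 had one at 0 h and 0 later. Of 4 endothelial markers 1 had one in every library, with summed signals of 109 and 192 at 0 h and 38 to 72 later. None of the 5 Leydig cell markers had one in any library. With an equal number of the highest peaks per library, 3 Sertoli markers had one at 0 h and 2 or 3 later, with summed signals of 394 and 531 against 105 to 246. By the same count 1 myoid marker had one at 0 h and 1 or 2 later, and the macrophage marker Cd68 had one in both 0 h libraries and in no later library. The part of these differences in the member regions at 0 h was not tested.

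Other genes of the pathway, from a list of 32 readers, partners, base excision enzymes and methyl donor enzymes, had 120 regions, of which 38 were in all 8 libraries. On the deposited scale 33 of the 38 were lower at 18 h (92.3% of all regions were), 34 at 48 h (93.3%) and 12 at 120 h (44.8%), with median log2 changes of -1.13, -1.26 and -0.55. From 48 to 120 h 13 of the 38 were called higher (23.7% of all regions were). Relative to the median region 3 were lower (15.8% of all regions) and 15 higher (23.0%) at 120 h than at 0 h, with a median change of 0.34, against medians of 0.16 for the 12 member regions and 0.14 for all regions. The 15 were spread over readers (4 of 9 regions), maintenance partners (4 of 9), TET partners (3 of 7), base excision (2 of 7) and methyl donor enzymes (2 of 5). Cxxc1 -148, at the start of a gene for a protein that binds unmethylated CpG (also assigned to Ska1), gave 186 and 236 at 0 h, 114 and 116 after 18 h, 89 and 127 after 48 h and 353 and 270 after 120 h. It was higher at 120 h than at 0 h by 1.45 ± 0.21 (SE, adjusted p = 0.00049) and than at 48 h by 1.04 (adjusted p = 0.017) relative to the median region. Ogt -160, at the start of the gene for a TET-binding glycosyltransferase, gave 54 and 62, then 39 and 40, 31 and 46, and 90 and 80, a relative change of 1.44 ± 0.23 (adjusted p = 0.00076). On the deposited scale the differences from 0 h of Cxxc1 -148 (0.56) and Ogt -160 (0.55) were not called. Mbd4 +14877, assigned to the gene of a thymine glycosylase and to Efcab12, was the region that fell most, from 273 and 340 at 0 h to 123 and 69 after 120 h (relative change -0.83, adjusted p = 0.0078). It was also lower at 120 h than at 48 h (-0.73, adjusted p = 0.034). Mbd1 +14752, assigned to the gene of a methyl-CpG reader and to Ccdc11, went from 128 and 201 to 64 and 45 (-0.69, adjusted p = 0.041). That call held under 7 of 14 alternatives, and the change was -0.43 (adjusted p = 0.29) with quantile normalization and -0.50 (adjusted p = 0.21) without 0 h replicate 2. Smug1 -44, at a uracil glycosylase gene, rose from 55 and 51 after 48 h to 172 and 121 after 120 h (relative change 0.94, adjusted p = 0.022). The differences between 48 and 120 h of Cxxc1 -148, Mbd4 +14877 and Smug1 -44 each held under 10 of 14 alternatives, and were lost with quantile normalization, without either 48 h library or without 120 h replicate 2. At 48 h 2 regions were higher than at 0 h relative to the median region, Cxxc5 +33382 (1.05, adjusted p = 0.031) and Cdca7 -27 (0.96, adjusted p = 0.036). Both were lower on the deposited scale, by -0.34 and -0.44, without being called. The call of Cdca7 -27 held under 6 of 14 alternatives (0.57 with the mean signal over the peak, adjusted p = 0.10, and 0.71 without 48 h replicate 1, adjusted p = 0.31). That of Cxxc5 +33382 held under 11 of 14 and was lost without 0 h replicate 2 (0.72, adjusted p = 0.20) or either 48 h library.

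For the 6 members with a region in all 8 libraries, the gene with the most similar pattern was sought among 10046 start regions (10045 for Dnmt3l), by Pearson correlation of the centred log2 summit signal over the 8 libraries. Uhrf1 +855 was most like Pkd1 (r = 0.996), Dnmt3b +82 most like Akr1a1 (0.981) and Dnmt1 +6992 most like Rttn (0.977). Tet1 -7314 was most like Lpar1 (0.944), Dnmt3a +1276 like Ltbp2 (0.934) and Dnmt3l +1233 like Tfap2c (0.922). Each is the highest of all these correlations over 8 shared libraries, and they describe similarity in these libraries only.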

How the data were processed

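ATAC-seq was measured in 8 libraries, 2 per timepoint (0, 18, 48 or 120 h). Per the labels' processing notes and the methods, the authors aligned reads to mm10 (BWA 0.7.12), removed duplicates, reduced libraries to equal tags, extended tags to 200 bp in 32-nt bins and called peaks per library without a control (MACS2 2.1.0). The deposited table gives each peak's signal as tag coverage at the summit and as a mean over the peak, with the genes assigned within 10 kb. The labels give 100000 cells per library and the methods 50000. Tags per library were thus equal; the deposited peak values are coverage and not counts, so no counting interval is given. Reads per region, browser tracks and merged-region lists were not used here, nor were columns of the authors' comparisons.

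Peaks were merged at 1 bp overlap into regions. Heights were log2 summit signal in 15536 regions with a peak in all 8 libraries, tested by limma 3.58.1 under R 4.3.3 (lmFit, eBayes, 4 groups, no block, Benjamini-Hochberg over all regions, threshold 0.05), as deposited and after centring each library on its median. Peak numbers were compared by exact permutation (Python 3.11.15). Merging and fit were tested on simulated data. Annotation came from GENCODE vM21 and sequence from GRCm38. Members, lists and tests were chosen with earlier results of these data known. Named in full were the region nearest each member's start in all 8 libraries, every member region called relative to the median region, and each member's highest region at 0 h only; of 32 other pathway genes, up to 2 regions per comparison and direction. Replicates are separate mice; all comparisons with 0 h share its 2 libraries. Alternatives were other heights, scalings, filters, libraries in the fit, a replicate block, peak thresholds, equal peak numbers and each library left out.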

Additional observations from a re-analysis of the deposited data

Results flagged for a closer look

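In 3 results the change from 0 h differed between 48 h and 120 h by the limma test of the difference itself. Uhrf1 +855 changed by 1.08 more (log2, deposited scale, adjusted p = 0.026) at 120 h than at 48 h. Uhrf1 +22487, which holds the Kdm4b start, changed by 1.11 more (adjusted p = 0.022). Both 120 h libraries were above both 48 h libraries in each. Relative to the median region the same differences were 0.58 and 0.60, with adjusted p = 0.072 and 0.055. Dnmt3a +64204 changed by -0.88 relative to the median region (adjusted p = 0.024), and on the deposited scale by -0.37 (adjusted p = 0.48). The library medians of these scales differed between 48 h (86 and 102) and 120 h (166 and 106), and the part of that difference in these results was not tested.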

How the results depend on the processing

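Centring each library on its median left 0 member regions lower at 18 h and 48 h and 1 at 120 h, 2 higher at 120 h than at 0 h, and 1 lower and 0 higher at 120 h than at 48 h, in place of 10, 11, 5, 0, 0 and 2 on the deposited scale. With only the libraries compared, 0 were called higher at 120 h than at 48 h on that scale. Relative to the median region, quantile normalization gave 0 lower and 0 higher at 120 h against 0 h and 0 lower against 48 h, the intensity trend gave 1 higher at 18 h and 2 at 120 h against 48 h, the mean signal over the peak gave 2 there, and the replicate block gave 1. The causes of these moves were not tested. Apart from centring, shares of all regions called under these alternatives are not given. The counts thus show dependence on the processing only and do not set the member regions apart. Same-numbered libraries did not deviate together throughout (correlations of -0.22 to 0.25 between timepoints). With 2 libraries per timepoint this cannot show whether the numbers pair the mice. The replicate block moved no other count of member regions by over 1.5 times.

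Regions at 0 h only numbered 2 with an equal number of the highest peaks (8.7%, against 9.43% of all regions). In that setting fewer peaks enter from the 0 h libraries. Regions at all 4 timepoints numbered 7 with peaks of at least 50 (22.58%, against 25.03% of all regions). The peaks of the 8 genes at 0 h minus later (18.3) came to 0.83 with an equal number and 11.3 inside the genes or within 1000 bp of their starts. With an equal number the sign turned for Dnmt3b (-0.33) and Tet1 (-0.50), and Uhrf1 ranged from -0.67 to 0.33 with a library left out, positive without 0 h replicate 2.

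With each library left out in turn, on the deposited scale the lower counts ranged from 2 to 10 at 18 h, 6 to 11 at 48 h and 2 to 8 at 120 h, and the higher count from 48 to 120 h from 0 to 3. Relative to the median region the counts ranged from 0 to 1 (higher at 48 h), 0 to 1 (lower at 120 h), 1 to 2 (higher at 120 h) and 0 to 1 (lower from 48 to 120 h). Regions at 0 h only ranged from 10 to 18, those at all 4 timepoints from 12 to 15, and the peak difference from 17.5 to 19.3. A timepoint left with 1 library was assumed to vary like the others. Shares of all regions called in these fits are not given, so the counts of called regions show dependence on single libraries only. Dnmt3l -4959 ranged from -1.15 to 0.18 at 48 h and from -0.83 to 0.19 at 120 h, the higher values without 48 h replicate 1 and 120 h replicate 2, and Uhrf1 +855 from -0.24 to 0.32 at 120 h against 0 h, negative without 0 h replicate 1 or 120 h replicate 1 (-0.23). A peak below the calling limit has no height, so losses of whole peaks were outside the limma comparison.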
